A study of Arabidopsis thaliana with 18 samples.

Results

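The genes described here are 10 nuclear genes of salicylic acid and systemic immunity in Arabidopsis thaliana, picked by gene ID from a table of 32833 genes: ICS1 (AT1G74710), PBS3 (AT5G13320), EDS1 (AT3G48090), PAD4 (AT3G52430), SARD1 (AT1G73805), CBP60G (AT5G26920), ALD1 (AT2G13810), FMO1 (AT1G19250), PR1 (AT2G14610) and PR2 (AT3G57260). The deposited tables call ICS1 EDS16, PR2 BGL2, and the transcription factor genes GNC and GNL GATA21 and GATA22, and all were matched by gene ID. RNA was sequenced from seedlings grown for 3 days in darkness at 21 °C on half-strength Murashige and Skoog medium. The study compared 3 genotypes, each in the ecotype Columbia, and each with and without 1% sucrose in the medium. GNLox is a transgenic line of the B-GATA transcription factor gene GNL, gnc gnl is a double mutant of GNL and its paralogue GNC, and Col-0 is the wild type. The 6 groups of 3 libraries each were thus GNLox with sucrose, GNLox without sucrose, gnc gnl with sucrose, gnc gnl without sucrose, Col-0 with sucrose and Col-0 without sucrose. The sources used here do not name the promoter of the GNLox transgene, the number of lines it stands for or the alleles of the double mutant. The genes were picked with earlier results of these libraries known, so their levels and ratios are a description. Where a fit over all genes called some of the 10, the count stands beside the share of all genes called, and no evidence is drawn from it. Adjusted p-values are given for other genes of the same pathways.

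Salicylic acid is a plant defence hormone. In its main route in Arabidopsis, ICS1 makes isochorismate in plastids, a transporter, EDS5, exports it, and PBS3 joins it to glutamate in the cytosol, which yields salicylic acid. EDS1 and PAD4 are lipase-like proteins that act together downstream of immune receptors, and SARD1 and CBP60G are related transcription factors that bind promoters of salicylic acid and pipecolic acid genes. ALD1 and FMO1 make N-hydroxypipecolic acid, the mobile signal of systemic acquired resistance, and PR1 and PR2 encode pathogenesis-related proteins that are classic markers of the salicylic acid response.

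The genes lie on 4 of the nuclear chromosomes, all annotated as protein coding in TAIR10. ICS1 is at chr1:28070295-28074177 on the plus strand, SARD1 at chr1:27744790-27749248 and FMO1 at chr1:6650476-6653195, both on the minus strand. ALD1 is at chr2:5768417-5772266 on the plus strand and PR1 at chr2:6241640-6242541 on the minus strand. On chromosome 3, EDS1 is at chr3:17755329-17758147 and PR2 at chr3:21188397-21189967 on the minus strand, and PAD4 at chr3:19431095-19434450 on the plus strand. PBS3 is at chr5:4267456-4271064 and CBP60G at chr5:9475679-9478777, both on the plus strand. SARD1 overlaps AT1G73790 on the opposite strand and no source used here says whether reads were counted by strand, so SARD1 is uncertain to that extent. Reads in exon sequence that SARD1 shares with no other gene made up 84.5% of its exon reads, against 100% for the other 9 genes.

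The 250 bases before the annotated start are shown for 6 of the genes, so that regions before genes with different sucrose responses can be read side by side; the windows of the other 4 were searched but are not printed. The sequences were read 5′ to 3′ on the strand of the gene from the RefSeq assembly TAIR10.1, whose nuclear coordinates equal those of the files for 32532 of 32548 genes. The windows are chr5:4267206-4267455 on the plus strand for PBS3, chr5:9475429-9475678 on the plus strand for CBP60G, chr1:27749249-27749498 on the minus strand for SARD1, chr2:5768167-5768416 on the plus strand for ALD1, chr1:6653196-6653445 on the minus strand for FMO1 and chr3:17758148-17758397 on the minus strand for EDS1. Capitals mark matches on either strand to TTGAC, the core of the W-box bound by WRKY factors, TGACG, bound by TGA factors, GAAATTT, bound by CBP60g and SARD1, and GATAA, a form of the motif bound by GATA factors.
PBS3: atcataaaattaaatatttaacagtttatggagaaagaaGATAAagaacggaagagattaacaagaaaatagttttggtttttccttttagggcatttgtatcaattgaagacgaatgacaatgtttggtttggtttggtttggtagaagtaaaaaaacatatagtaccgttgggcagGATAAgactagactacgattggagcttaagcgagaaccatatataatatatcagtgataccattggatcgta
CBP60G: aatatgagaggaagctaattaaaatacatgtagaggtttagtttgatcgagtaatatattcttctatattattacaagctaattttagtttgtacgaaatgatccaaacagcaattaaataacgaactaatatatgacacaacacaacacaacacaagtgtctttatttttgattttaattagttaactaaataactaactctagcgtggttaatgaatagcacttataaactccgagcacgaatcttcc
SARD1: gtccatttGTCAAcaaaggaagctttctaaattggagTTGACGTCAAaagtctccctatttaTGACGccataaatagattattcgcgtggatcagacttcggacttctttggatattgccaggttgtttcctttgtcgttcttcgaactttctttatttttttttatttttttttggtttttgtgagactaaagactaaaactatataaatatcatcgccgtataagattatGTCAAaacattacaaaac
ALD1: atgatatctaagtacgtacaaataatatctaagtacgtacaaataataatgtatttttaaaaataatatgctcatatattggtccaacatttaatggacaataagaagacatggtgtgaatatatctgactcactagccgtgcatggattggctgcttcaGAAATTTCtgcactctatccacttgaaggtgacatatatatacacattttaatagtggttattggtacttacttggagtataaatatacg
FMO1: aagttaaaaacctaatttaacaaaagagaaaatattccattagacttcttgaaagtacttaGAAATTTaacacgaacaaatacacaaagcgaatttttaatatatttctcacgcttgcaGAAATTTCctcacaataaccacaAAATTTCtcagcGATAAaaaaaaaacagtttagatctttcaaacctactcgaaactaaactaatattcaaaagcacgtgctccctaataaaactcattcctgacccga
EDS1: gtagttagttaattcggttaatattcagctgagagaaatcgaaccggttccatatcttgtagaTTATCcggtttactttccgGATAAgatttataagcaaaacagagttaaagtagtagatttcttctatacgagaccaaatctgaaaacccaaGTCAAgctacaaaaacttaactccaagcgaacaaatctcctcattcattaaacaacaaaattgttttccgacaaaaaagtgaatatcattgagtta
In SARD1, TTGAC and TGACG matches overlap, with 4 matches to TTGAC and 3 to TGACG, and no GATAA. FMO1 has 4 matches to GAAATTT and 1 to GATAA, and ALD1 has 2 matches to GAAATTT. In both genes, 2 of the GAAATTT matches are both strands of a single palindromic site. EDS1 has 1 match to TTGAC and 2 to GATAA, PBS3 has 2 to GATAA, and CBP60G has none of the 4. Of the 10 genes, 3 hold TTGAC, 1 holds TGACG, 3 hold GAAATTT and 4 hold GATAA. Among the same windows of 27438 nuclear protein-coding genes, TTGAC is in 44.9%, TGACG in 18.6%, GAAATTT in 12.5% and GATAA in 54.9%. A match describes letters in a window and not a binding site.

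The libraries held 27362791 to 41942516 reads counted per gene, of which 55.37% to 95.54% were assigned to a single place, and none of the 18 pairs of replicates held identical values. GNLox without sucrose replicate 3 had the lowest such share and stood apart, and results that its removal changes are named below. GNL averaged 4193 ± 1243 CPM (reads of a gene scaled to a fixed normalised library total) in GNLox with sucrose and 5871 ± 640 CPM in GNLox without sucrose (SD, n = 3 each), against 1.90 ± 0.807 CPM in Col-0 with sucrose and 13.5 ± 7.99 CPM in Col-0 without sucrose. GNC averaged 5.99 ± 0.633 CPM in gnc gnl with sucrose, against 14.4 ± 3.65 CPM in Col-0 with sucrose, and 8.997 ± 0.426 CPM in gnc gnl without sucrose, against 27.4 ± 9.18 CPM in Col-0 without sucrose. GNL had 3.89, 5.32 and 3.16 CPM in gnc gnl with sucrose, each above its mean of 1.90 CPM in Col-0 with sucrose. Reads from the mutated genes thus remained in gnc gnl, and their levels do not check its label. Of 10 root marker genes, 7 rose with sucrose in GNLox, 6 in gnc gnl and 7 in Col-0. The summed level of the 10 root markers was 206 to 287 CPM with sucrose against 162 to 243 CPM without in GNLox, 208 to 221 against 139 to 176 CPM in gnc gnl, and 228 to 270 against 151 to 208 CPM in Col-0. Its root hair and uptake genes alone summed to 44.4 to 76.8 CPM with sucrose against 0.104 to 0.472 CPM without in GNLox, 37.4 to 69.3 against 1.32 to 3.10 CPM in gnc gnl, and 37.6 to 68.4 against 0.649 to 1.72 CPM in Col-0. Seed markers summed to 58.0 to 269 CPM with sucrose against 624 to 1013 CPM without in GNLox, 328 to 594 against 750 to 879 CPM in gnc gnl, and 123 to 314 against 442 to 731 CPM in Col-0. In gnc gnl with sucrose this sum was nearly that of 1 gene, ICL, at 431, 575 and 325 CPM against sums of 432, 594 and 328 CPM. The seed marker CRA1 went the other way in Col-0, at 1.35 ± 1.26 CPM with sucrose against 0.307 ± 0.052 CPM without. Leaf mesophyll markers summed to 2942 to 10929 CPM with sucrose against 2177 to 4543 CPM without in GNLox, 5563 to 7994 against 2370 to 6293 CPM in gnc gnl, and 4448 to 7365 against 1517 to 2450 CPM in Col-0. In gnc gnl with sucrose most of this sum was LHCB1.3, at 5111, 5952 and 4109 CPM. The part of these cell types in the results below was not tested, and in whole seedlings a change in cell number and in RNA per cell cannot be told apart.

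The first comparison asked what sucrose did to the genes of salicylic acid synthesis in each genotype. In Col-0, PBS3 was 42.0-fold higher with sucrose, whereas in GNLox it was at or below 1.04 CPM on both media. PBS3 had 0.260, 1.04 and 0.352 CPM in GNLox with sucrose and 0.521, 0.699 and 0.363 CPM in GNLox without sucrose. In gnc gnl it had 0.356, 12.8 and 14.1 CPM with sucrose and 0.641, 0.371 and 0.632 CPM without. In Col-0 it had 39.1, 39.8 and 27.6 CPM with sucrose and 0.813, 1.12 and 0.623 CPM without. The 3 Col-0 libraries with sucrose were above every other library, and gnc gnl with sucrose was split, with replicate 1 below every library without sucrose. The log2 ratio of sucrose to no sucrose was 0.03 ± 1.04 (SE) in GNLox, 4.03 ± 0.87 in gnc gnl and 5.39 ± 0.83 in Col-0.

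ICS1, the first enzyme of the pathway, had a different pattern: it was already high in gnc gnl without sucrose. ICS1 had 3.72, 3.81 and 3.17 CPM in GNLox with sucrose and 1.69, 2.71 and 2.90 CPM in GNLox without sucrose. The gnc gnl libraries had 4.22, 5.63 and 3.85 CPM with sucrose and 7.09, 3.71 and 3.70 CPM without. The Col-0 libraries had 4.497, 5.03 and 4.25 CPM with sucrose and 1.46, 1.74 and 2.18 CPM without. The groups with and without sucrose did not overlap in Col-0 or GNLox and overlapped in gnc gnl. The log2 ratio of sucrose to no sucrose was 0.57 ± 0.26 in GNLox, -0.09 ± 0.25 in gnc gnl and 1.35 ± 0.27 in Col-0. Without sucrose, ICS1 was 2.68-fold higher in gnc gnl than in Col-0 (log2 ratio 1.42 ± 0.27), and all 3 gnc gnl libraries were above all 3 Col-0 libraries. The highest of these values was gnc gnl replicate 1 at 7.09 CPM, and the log2 ratio was 1.04 without it.

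EDS1 and PAD4, which act as a pair, were higher with sucrose in Col-0 by less than the other fitted genes. EDS1 had 22.7, 21.8 and 25.6 CPM in GNLox with sucrose and 18.5, 14.005 and 12.7 CPM in GNLox without sucrose. In gnc gnl it had 21.3, 24.2 and 24.7 CPM with sucrose and 18.4, 18.9 and 21.2 CPM without. In Col-0 it had 29.4, 29.9 and 31.6 CPM with sucrose and 21.0, 18.4 and 17.8 CPM without. Every library with sucrose was above every library without sucrose of its own genotype, and Col-0 with sucrose was above all other groups. The log2 ratio was 0.62 ± 0.12 in GNLox, 0.26 ± 0.12 in gnc gnl and 0.67 ± 0.12 in Col-0. EDS1 has a neighbouring copy, EDS1B (AT3G48080), and 100% of the EDS1 exon reads were counted as unique to EDS1. Whether reads were placed in the wrong copy was not tested.

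PAD4 had 16.5, 13.01 and 16.7 CPM in GNLox with sucrose and 12.1, 8.53 and 8.65 CPM in GNLox without sucrose. The gnc gnl libraries had 8.34, 11.2 and 11.7 CPM with sucrose and 8.83, 7.99 and 6.96 CPM without. The Col-0 libraries had 18.1, 15.4 and 15.4 CPM with sucrose and 7.45, 6.94 and 6.31 CPM without. PAD4 did not overlap between media in GNLox or Col-0, and overlapped in gnc gnl through replicate 1 with sucrose. The log2 ratio was 0.65 ± 0.16 in GNLox, 0.40 ± 0.16 in gnc gnl and 1.24 ± 0.16 in Col-0. With sucrose, the log2 ratio of GNLox to Col-0 was -0.08 ± 0.16 for PAD4 and -0.37 ± 0.12 for EDS1.

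Of the transcription factors, CBP60G was 7.85-fold higher with sucrose in Col-0 and overlapped between media in GNLox, while SARD1 was higher with sucrose in every library of every genotype. CBP60G had 15.1, 22.3 and 16.5 CPM in GNLox with sucrose and 22.9, 18.9 and 17.9 CPM in GNLox without sucrose. In gnc gnl it had 8.91, 64.0 and 62.5 CPM with sucrose and 18.4, 16.2 and 18.6 CPM without. In Col-0 it had 126, 137 and 105 CPM with sucrose and 14.8, 17.8 and 14.3 CPM without. All Col-0 libraries with sucrose were above all others, GNLox overlapped between media, and gnc gnl replicate 1 with sucrose was below every library without sucrose. The log2 ratio was -0.15 ± 0.45 in GNLox, 1.35 ± 0.45 in gnc gnl and 2.97 ± 0.47 in Col-0. Leaving out 1 library at a time ended the call in gnc gnl 5 times in 18.

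SARD1 had 2.13, 1.79 and 2.92 CPM in GNLox with sucrose and 0.497, 0.531 and 0.725 CPM in GNLox without sucrose. The gnc gnl libraries had 2.00, 4.89 and 4.31 CPM with sucrose and 1.14, 1.19 and 0.917 CPM without. The Col-0 libraries had 6.33, 5.99 and 4.87 CPM with sucrose and 0.943, 0.954 and 0.753 CPM without. SARD1 did not overlap between media in any genotype. The log2 ratio was 2.00 ± 0.32 in GNLox, 1.79 ± 0.29 in gnc gnl and 2.70 ± 0.30 in Col-0, the last a 6.48-fold difference.

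ALD1 and FMO1, the first and last enzymes of the route to N-hydroxypipecolic acid, were at or below 2.31 CPM without sucrose in all genotypes and, like PBS3, had larger sucrose ratios in Col-0 than the other 5 fitted genes. ALD1 had 10.4, 8.64 and 9.81 CPM in GNLox with sucrose and 1.99, 1.15 and 1.295 CPM in GNLox without sucrose. In gnc gnl it had 3.18, 13.6 and 13.2 CPM with sucrose and 2.31, 0.618 and 0.443 CPM without. In Col-0 it had 18.8, 18.5 and 19.6 CPM with sucrose and 0.683, 0.395 and 0.156 CPM without. ALD1 did not overlap between media in any genotype, and without sucrose all GNLox libraries were above all Col-0 libraries. The log2 ratio was 2.68 ± 0.54 in GNLox, 3.15 ± 0.57 in gnc gnl and 5.57 ± 0.64 in Col-0, the last a 47.4-fold difference.

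FMO1 had 1.87, 3.53 and 2.77 CPM in GNLox with sucrose and 0.348, 0.252 and 0.415 CPM in GNLox without sucrose. The gnc gnl libraries had 1.89, 10.9 and 11.7 CPM with sucrose and 0, 0 and 0.126 CPM without. The Col-0 libraries had 21.5, 22.7 and 19.3 CPM with sucrose and 0.163, 0.493 and 0.130 CPM without. FMO1 did not overlap between media in any genotype, and Col-0 with sucrose was above all other libraries. It was 8.27-fold higher with sucrose in GNLox (log2 ratio 3.05 ± 0.66) and 82.4-fold higher in Col-0 (6.37 ± 0.67). The ratio in gnc gnl, 7.32 ± 0.88, rests on 4 reads without sucrose and was 6.77 to 11.1 when 1 library was left out.

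The output genes PR1 and PR2 had almost no reads on either medium. PR1 had 62 reads in the 18 libraries together and 0 in 7 of them, with a highest level of 0.488 CPM. PR2 had 16 reads in all and 0 in 10 libraries. In GNLox without sucrose PR2 had no read in any library, which allows a level of up to 0.0315 CPM over the group, counting 3 reads as the limit of a count of 0. Both genes failed the filter on low counts and were not fitted. The other output gene PR5 had 3 reads in all.

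**Figure D1:**
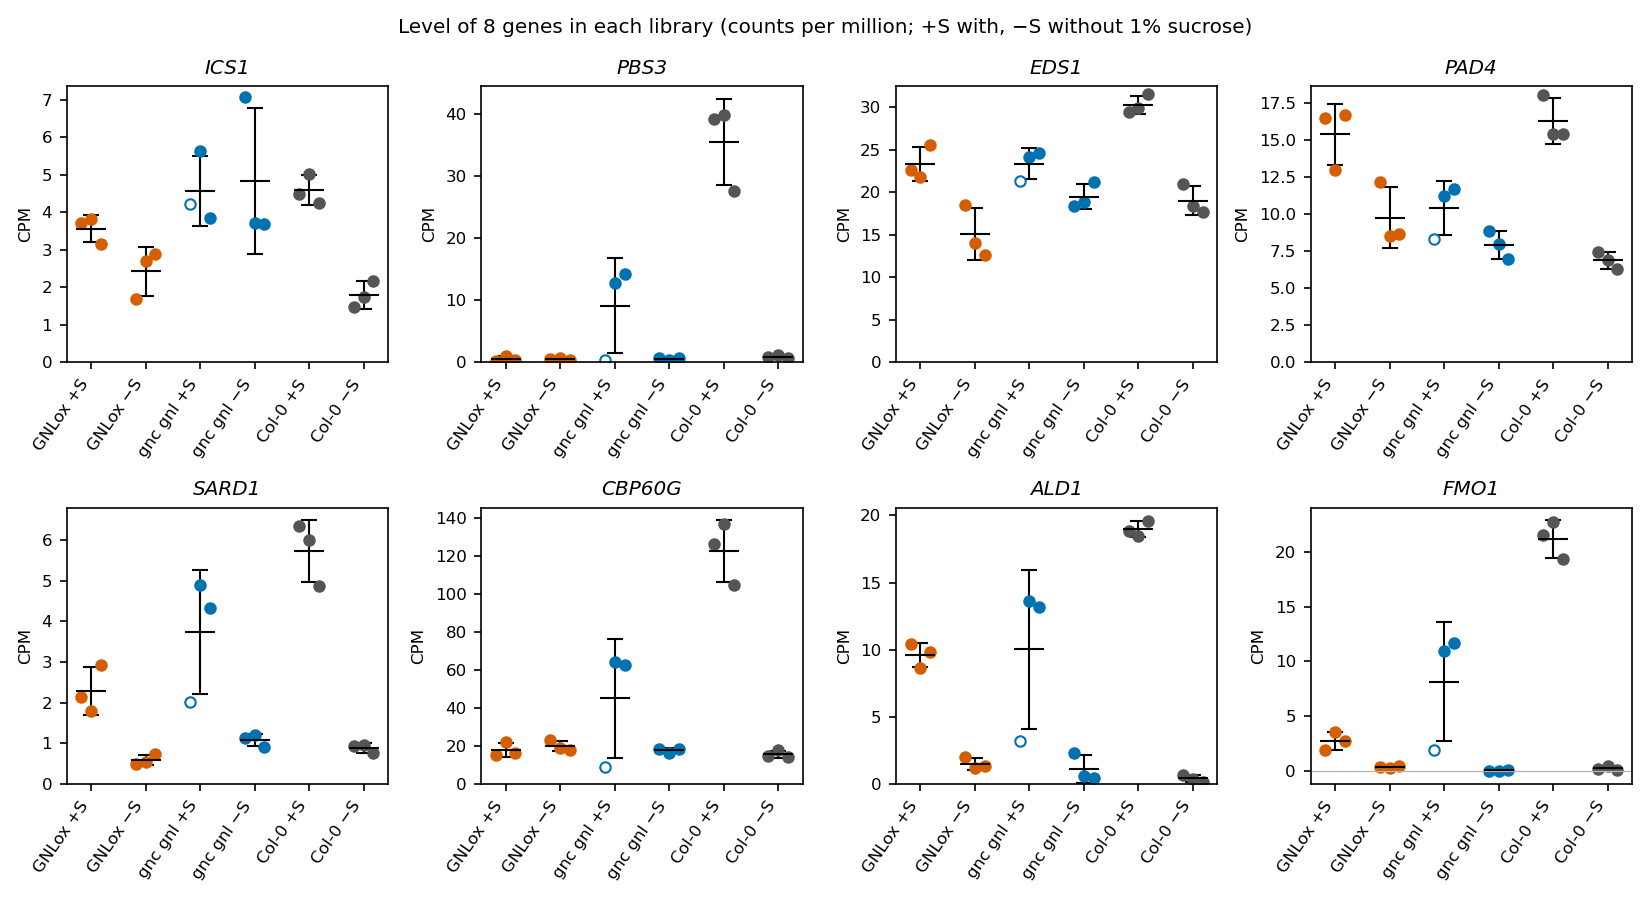
Level in CPM (linear axis) of the 8 fitted genes in each of the 18 libraries, 1 panel a gene, with mean and SD of each group of 3 as lines; +S is with and −S without 1% sucrose, and the open circle is gnc gnl with sucrose replicate 1. PBS3, CBP60G and FMO1 are highest in the 3 Col-0 libraries with sucrose, at 27.6 to 39.8 CPM, 105 to 137 CPM and 19.3 to 22.7 CPM.

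Read per kilobase of exon, which allows genes to be compared, the order of the levels differed between groups. In Col-0 with sucrose CBP60G led at 53.2 ± 7.12 CPM per kb, above PBS3 at 13.5, ALD1 at 12.1, EDS1 at 11.9 and FMO1 at 11.1, where each neighbour overlapped the next. PAD4 followed at 7.23 CPM per kb, then SARD1 at 2.39 and ICS1 at 2.11, which overlapped, and PR1 at 0.124 and PR2 at 0.0116. In GNLox with sucrose EDS1 led at 9.16 CPM per kb and CBP60G, PAD4 and ALD1 followed at 7.79, 6.83 and 6.13, each overlapping the next, and PBS3 was at 0.210. In Col-0 without sucrose EDS1 at 7.46 and CBP60G at 6.77 CPM per kb led and overlapped, while FMO1 was at 0.137.

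Of the 10 genes, 8 passed the filter and were fitted, and 8 were called higher with sucrose in Col-0 (edgeR, adjusted p under 0.05), where 49.8% of all 21903 fitted genes were called and 26.0% were called higher. In GNLox 5 were called higher, EDS1, PAD4, SARD1, ALD1 and FMO1, where 54.8% of all genes were called and 28.7% were higher. In gnc gnl 5 were called higher, PBS3, SARD1, CBP60G, ALD1 and FMO1, where 32.2% of all genes were called and 17.9% were higher. The groups did not overlap for 6 of the 8 genes in GNLox, 4 in gnc gnl and 8 in Col-0, against 54.8%, 49.5% and 59.5% of all genes. The median log2 ratio of the fitted genes was 0.64 in GNLox, 1.57 in gnc gnl and 2.84 in Col-0, against 0.03, 0.00 and 0.00 over all genes. Genes passed the filter through the groups where they were high, so these counts support nothing by themselves.

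**Figure D2:**
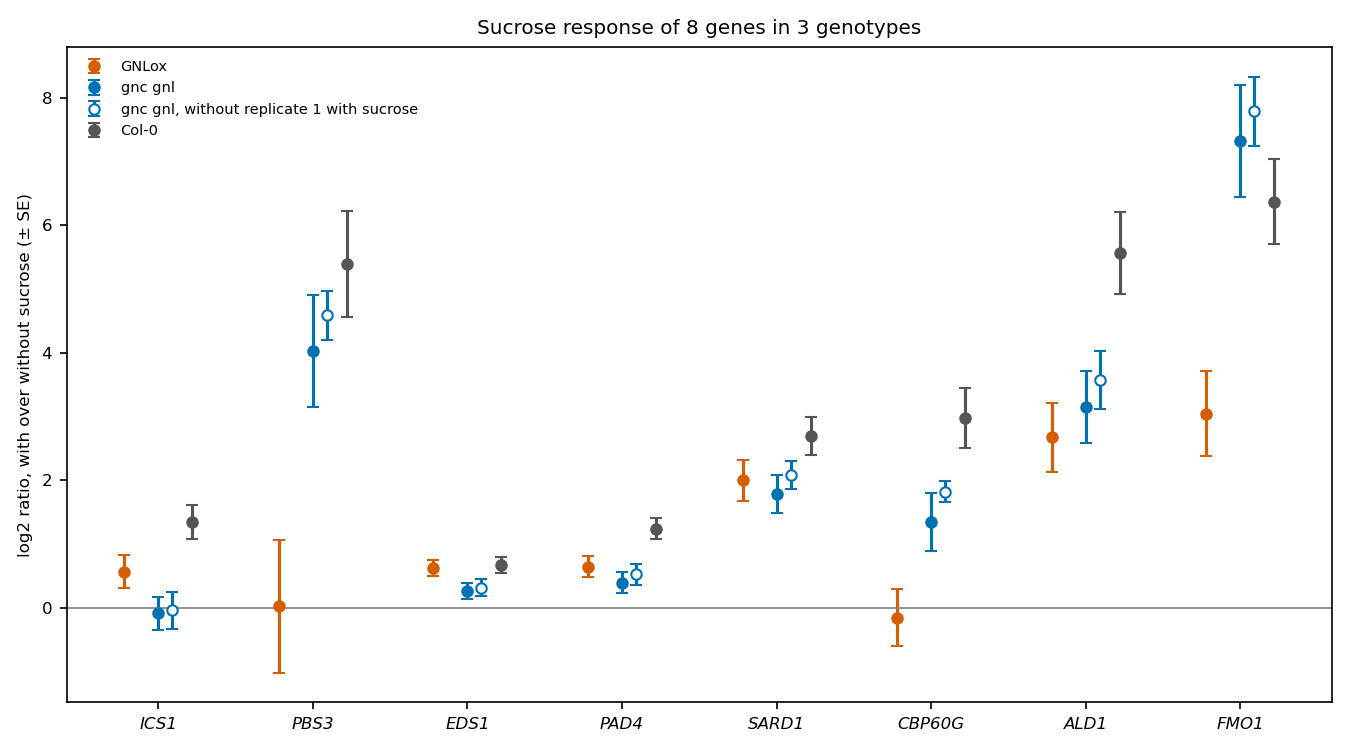
Log2 ratio of sucrose to no sucrose for the 8 fitted genes, with standard errors as bars, in GNLox, gnc gnl and Col-0; open circles are gnc gnl without its replicate 1 with sucrose. In Col-0 every gene is above 0, while PBS3 is at 0.03 and CBP60G at -0.15 in GNLox and ICS1 at -0.09 in gnc gnl.

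Replicate 1 of gnc gnl with sucrose stood apart in these genes. PBS3, CBP60G, ALD1 and FMO1 were more than 4-fold lower in that library than in either of the other two replicates. The same held for 105 of the 19128 nuclear genes that averaged 1 CPM or more (0.549%). No gene of the 8 pathway lists and no root marker was among them, but the seed markers CRA1 and OLEO1 were. CRA1 had 0.329, 15.3 and 1.69 CPM in replicates 1 to 3, and OLEO1 had 0.0823, 2.32 and 0.356 CPM. The level in replicate 1 against the mean of the other replicates was -4.89 for PBS3, -2.81 for CBP60G, -2.52 for FMO1 and -2.04 for ALD1 on the log2 scale. SARD1 was at -1.16, PAD4 at -0.45, EDS1 at -0.20 and ICS1 at -0.16. The library had 29409787 reads, of which 91.23% were assigned to a single place, both within the range of all libraries, and its root marker sum of 208 CPM was the lowest of 208 to 221 CPM in its group. Without that library the sucrose ratio in gnc gnl was 4.58 ± 0.39 for PBS3, 1.83 ± 0.16 for CBP60G, 3.57 ± 0.45 for ALD1, 7.79 ± 0.54 for FMO1, 2.08 ± 0.22 for SARD1, 0.53 ± 0.16 for PAD4 and 0.32 ± 0.13 for EDS1. Then 6 genes were called higher, where 23.1% of all genes were called and 13.6% were higher. The cause of the library's difference was not tested.

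**Figure D3:**
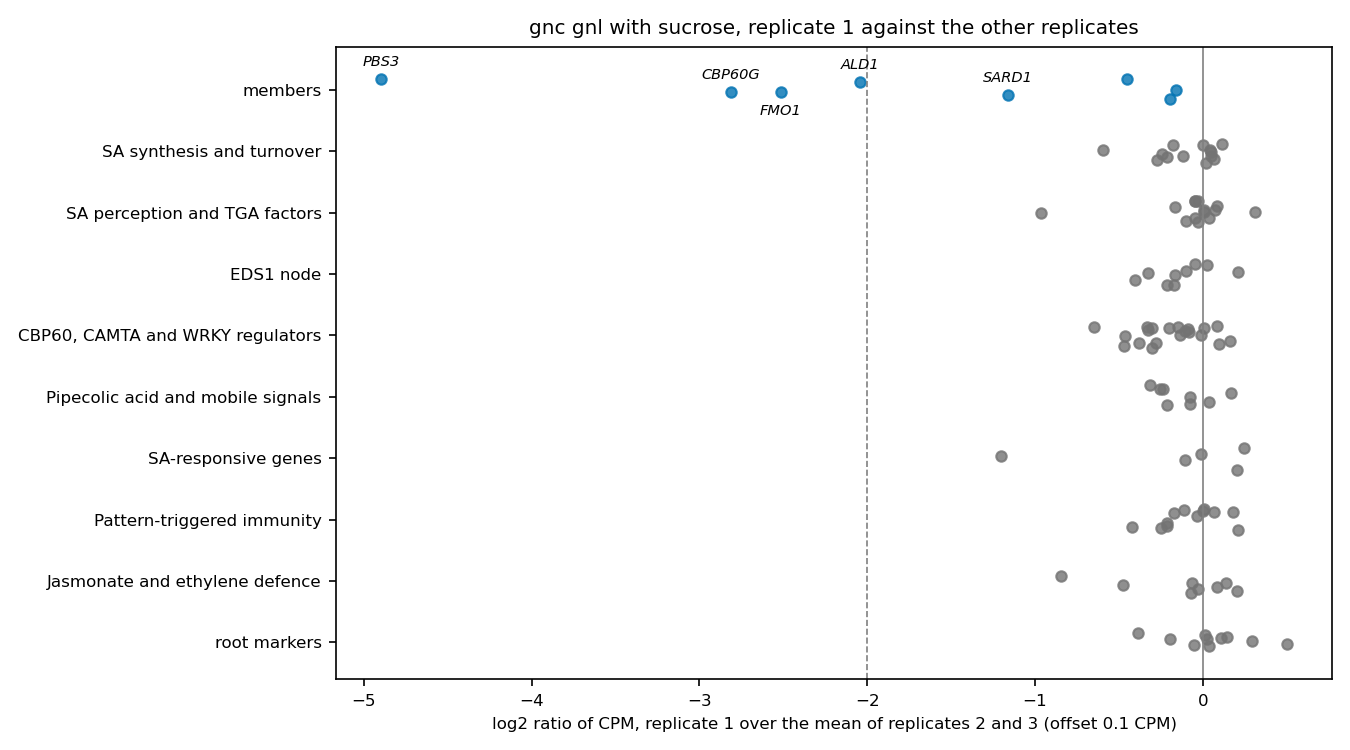
Log2 ratio of the CPM of replicate 1 to the mean of the other replicates in gnc gnl with sucrose (0.1 CPM added to both), 1 point a gene, for the 8 fitted genes, the 8 pathway lists and the root markers; the dashed line marks a 4-fold lower level. PBS3, CBP60G, FMO1 and ALD1 lie left of the dashed line at -4.89 to -2.04, and no gene of the other lists does.

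The lines were next set against Col-0 on the same medium; the comparisons on a medium share their Col-0 libraries. With sucrose, 5 of the 8 genes were called lower in GNLox than in Col-0, PBS3, EDS1, SARD1, CBP60G and FMO1, where 20.4% of all genes were called and 10.2% were lower. The log2 ratio of GNLox to Col-0 was -5.98 ± 0.85 for PBS3, -2.77 ± 0.47 for CBP60G, -2.95 ± 0.50 for FMO1, -1.32 ± 0.27 for SARD1, -0.98 ± 0.47 for ALD1, -0.37 ± 0.12 for EDS1, -0.37 ± 0.25 for ICS1 and -0.08 ± 0.16 for PAD4. Of these genes 7 did not overlap between the groups, against 37.4% of all genes. The call for EDS1 did not survive 7 of the 18 removals of a single library.

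In gnc gnl with sucrose no gene was called against Col-0, where 0.160% of all genes were called. The log2 ratio of gnc gnl to Col-0 was -1.96 ± 0.66 for PBS3, -1.44 ± 0.44 for CBP60G, -1.37 ± 0.47 for FMO1, -0.92 ± 0.47 for ALD1, -0.64 ± 0.16 for PAD4, -0.62 ± 0.26 for SARD1 and -0.37 ± 0.12 for EDS1, and it was -0.01 ± 0.25 for ICS1. At an unadjusted edgeR p under 0.05, 6 of the 8 genes passed, against 3642 of all 21903 genes. DESeq2 called 1 of the 8, against 341 of all genes. Without gnc gnl replicate 1 the ratios of PBS3 and CBP60G were -1.40 ± 0.32 and -0.96 ± 0.17, and CBP60G was then called lower, where 0.118% of all genes were called and 0.0770% were lower.

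With sucrose 6 of the 8 genes did not overlap between gnc gnl and Col-0, against 32.3% of all genes. Without sucrose, ICS1 was the 1 gene called higher in gnc gnl than in Col-0, where 1.29% of all genes were called and 0.991% were higher, and the call was lost when any 1 of 4 libraries was left out. In GNLox against Col-0 no gene was called, where 13.5% of all genes were called. At an unadjusted edgeR p under 0.05, 3 of the 8 passed, against 6057 of all 21903 genes. DESeq2 called 2 of the 8, against 3629 of all genes. The largest of these log2 ratios of GNLox to Col-0 was that of ALD1 at 1.91 ± 0.71, and PAD4 was at 0.51 ± 0.16. Without gnc gnl with sucrose replicate 1, which enters the shared estimate of spread, these 2 genes were called higher in GNLox, where 12.2% of all genes were called and 5.88% were higher. Without sucrose 4 of the 8 genes did not overlap between GNLox and Col-0 and 2 between gnc gnl and Col-0, against 29.8% and 24.7% of all genes.

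**Figure D4:**
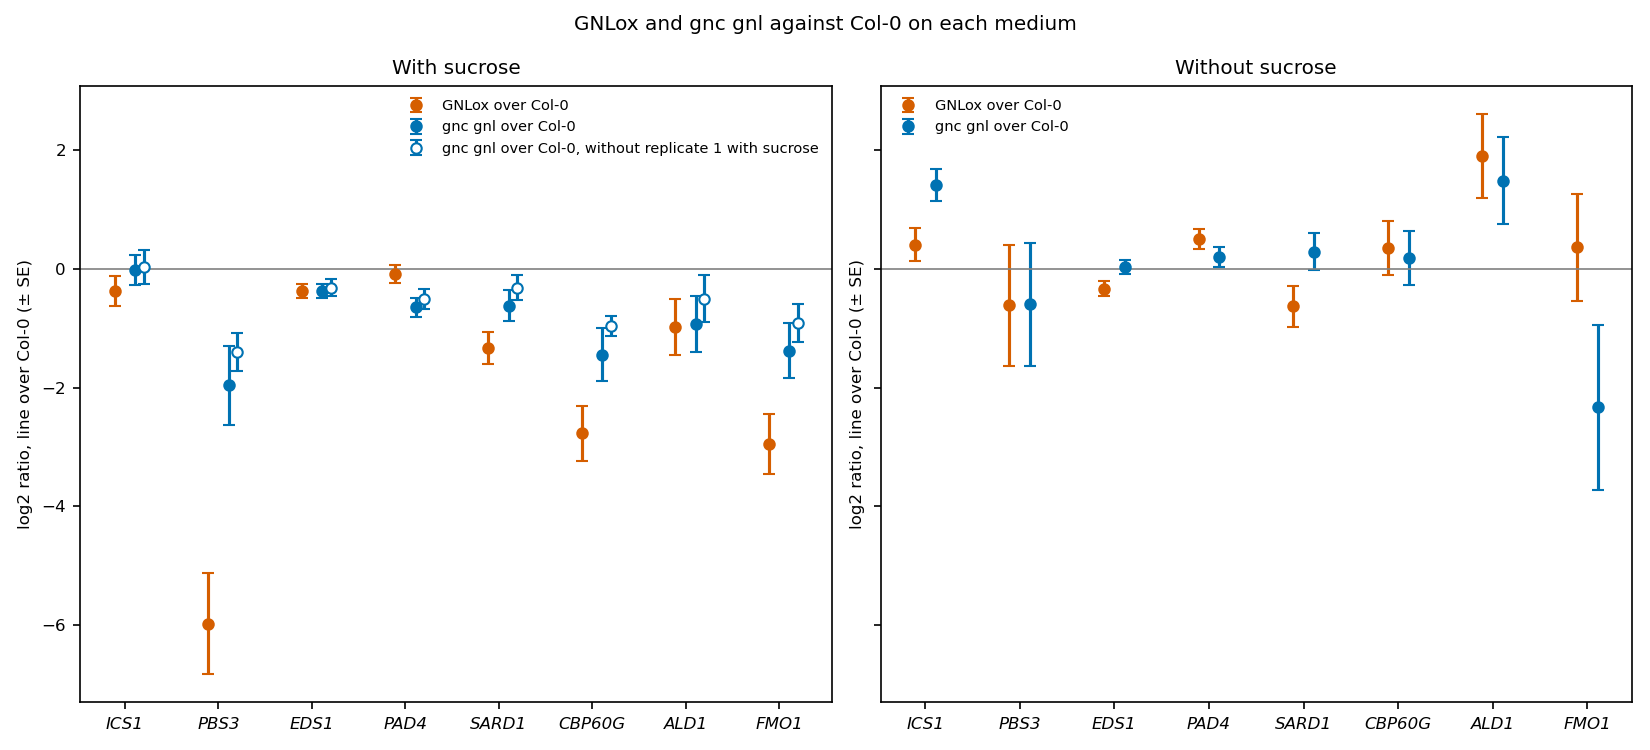
Log2 ratio of GNLox and of gnc gnl to Col-0 for the 8 fitted genes, with standard errors as bars, with sucrose (left) and without (right); open circles are gnc gnl without its replicate 1 with sucrose. With sucrose GNLox is at -5.98 for PBS3, and without sucrose gnc gnl is at 1.42 for ICS1.

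The difference of the sucrose response between genotypes was fitted as an interaction. For CBP60G the response in GNLox minus that in Col-0 was -3.12 ± 0.64 on the log2 scale, the 1 gene called, where 1.12% of all genes were called and 0.356% were lower. It was -5.37 ± 1.36 for PBS3, -3.32 ± 1.04 for FMO1 and -2.89 ± 0.85 for ALD1, which were not called. Without GNLox without sucrose replicate 3, the library that stood apart by its reads, the call for CBP60G was lost and no other of the 8 genes was called. Some genes outside the 8 were still called in that fit. Their share of all genes is not given here, so the lost call cannot be set against it. The call for CBP60G held in 8 of the 18 fits that left out 1 library. At an unadjusted edgeR p under 0.05, 5 of the 8 genes passed, against 3253 of all 21903 genes. DESeq2 called 4 of the 8, against 879 of all genes. Without gnc gnl with sucrose replicate 1, 4 genes were called lower, PBS3, CBP60G, ALD1 and FMO1, where 1.44% of all genes were called and 0.679% were lower. For gnc gnl no gene was called, where 0.00% of all genes were called. Of the 8 genes, 6 passed at an unadjusted edgeR p under 0.05, against 1656 of all 21903 genes. DESeq2 called 0 of the 8, against 69 of all genes. ICS1 was at -1.43 ± 0.37 and CBP60G at -1.63 ± 0.63.

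Of 106 further genes of these pathways in 8 lists, 97 were fitted and tested with edgeR. With sucrose 38 rose and 15 fell in GNLox, 29 rose and 13 fell in gnc gnl, and 37 rose and 12 fell in Col-0. In all, 53 of the 97 were called in GNLox, 42 in gnc gnl and 49 in Col-0, against 54.8%, 32.2% and 49.8% of all genes, and in GNLox and Col-0 the lists were thus called about as often as all genes. In gnc gnl the counts were 24 and 5 without replicate 1 with sucrose. Their median log2 ratio was 0.17 in GNLox, 0.06 in gnc gnl and 0.18 in Col-0. EDS5, the exporter of isochorismate, rose in every genotype, to 7.56 ± 2.24 CPM with sucrose against 0.620 ± 0.240 CPM without in GNLox (log2 ratio 3.56 ± 0.39, edgeR adjusted p = 6.2e-06), by 2.30 ± 0.36 in gnc gnl (adjusted p = 0.00045) and to 8.66 ± 3.40 CPM against 0.910 ± 0.299 CPM in Col-0 (3.26 ± 0.38, adjusted p = 1.5e-05). PAL1, which starts phenylpropanoid synthesis, also rose in every genotype, by 2.26 ± 0.19 in GNLox, 1.78 ± 0.18 in gnc gnl and 2.28 ± 0.19 in Col-0, and its paralogue PAL4 by 1.69 ± 0.14 in GNLox, 1.25 ± 0.14 in gnc gnl and 1.63 ± 0.14 in Col-0. Of the 13 fitted genes of salicylic acid synthesis and turnover, 7 rose and 1 fell in GNLox, 6 rose and 1 fell in gnc gnl, and 6 rose and 2 fell in Col-0.

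Among the perception and TGA genes, 3 of 15 rose and 5 fell in GNLox, 2 rose and 3 fell in gnc gnl, and 4 rose and 3 fell in Col-0. NPR4, a salicylic acid receptor, fell by 0.41 in GNLox, 0.43 in gnc gnl and 0.49 in Col-0 on the log2 scale. The TGA factor TGA6 fell by 0.52 in GNLox and 0.27 in gnc gnl, where it was no longer called without replicate 1 with sucrose (edgeR adjusted p = 0.0505). NIMIN2, which binds NPR1, rose by 0.83 ± 0.19 in Col-0. Of 9 genes of the EDS1 node, 2 rose and 1 fell in GNLox, 1 rose and 3 fell in gnc gnl, and 1 rose and 1 fell in Col-0. NUDT7, a negative regulator of EDS1 signalling, rose by 0.73 ± 0.16 in GNLox, 0.62 ± 0.16 in gnc gnl and 1.15 ± 0.16 in Col-0. SAG101, another partner of EDS1, fell by 0.43 in gnc gnl, and ADR1, a helper immune receptor, rose by 0.46 ± 0.15 in GNLox. Of 20 CBP60, CAMTA and WRKY genes, 6 rose and 4 fell in GNLox, 3 rose and 5 fell in gnc gnl, and 8 rose and 5 fell in Col-0. WRKY53 rose by 1.54 ± 0.20 in GNLox, 0.96 ± 0.21 in gnc gnl and 1.55 ± 0.20 in Col-0, and WRKY54, a related factor, by 0.83 ± 0.20 in GNLox, 0.67 ± 0.19 in gnc gnl and 1.14 ± 0.19 in Col-0. CAMTA1, a calmodulin-binding transcription activator, fell by 0.41 in gnc gnl. Here and below, at most 4 genes per list and comparison are named, so a gene named in 1 genotype may also have been called in others.

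Of 10 genes of pipecolic acid and mobile signals, 4 rose and 2 fell in GNLox, 3 rose and 1 fell in gnc gnl, and 4 rose and 1 fell in Col-0. SARD4, which reduces the product of ALD1, rose by 1.09 ± 0.19 in gnc gnl and 1.28 ± 0.19 in Col-0, and AZI1, a lipid-transfer-like protein of systemic immunity, by 2.29 ± 0.39 in GNLox, 1.14 ± 0.38 in gnc gnl and 1.47 ± 0.38 in Col-0. AZI1 was no longer called in gnc gnl without replicate 1 with sucrose (edgeR adjusted p = 0.074). EARLI1, a tandem copy of AZI1 with which reads could be shared, rose by 3.98 ± 0.64 in GNLox, 3.83 ± 0.67 in gnc gnl and 3.47 ± 0.65 in Col-0. DIR1 and AT4G12490 were also called in GNLox, but each had 0 reads on 1 medium: DIR1 had 0 CPM with sucrose against 5.95 ± 1.97 CPM without, and AT4G12490 had 3.05 ± 2.65 CPM with sucrose against 0 CPM without. DIR1 overlaps AT5G48480 and is uncertain. Of 6 fitted salicylic-acid-responsive genes, 0 rose in GNLox, 1 in gnc gnl and 0 in Col-0. The 1 was LURP1, at 10.1 ± 1.46 CPM with sucrose against 5.18 ± 0.612 CPM without (log2 ratio 0.96 ± 0.33, edgeR adjusted p = 0.036), and it was lost without gnc gnl with sucrose replicate 1 (adjusted p = 0.099). Among 13 pattern-triggered immunity genes 6 rose and 2 fell in GNLox, and 6 rose and 0 fell in gnc gnl and in Col-0. FRK1, a receptor kinase used as a marker of that response, rose by 2.36 ± 0.40 in GNLox, 1.89 ± 0.46 in gnc gnl and 2.51 ± 0.44 in Col-0. PROPEP3, which encodes a precursor of a danger peptide, rose by 1.86 ± 0.35 in GNLox, 2.07 ± 0.39 in gnc gnl and 3.85 ± 0.40 in Col-0. Of 11 fitted jasmonate and ethylene genes, 10 rose in GNLox, 7 in gnc gnl and 8 in Col-0, and none fell, with PR3, a chitinase, rising by 0.84 ± 0.31 in GNLox, 1.03 ± 0.30 in gnc gnl and 1.66 ± 0.31 in Col-0. VSP2, a jasmonate-responsive storage protein gene, rose by 2.40 ± 0.46 in GNLox, 1.69 ± 0.44 in gnc gnl and 2.73 ± 0.46 in Col-0.

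**Figure D5:**
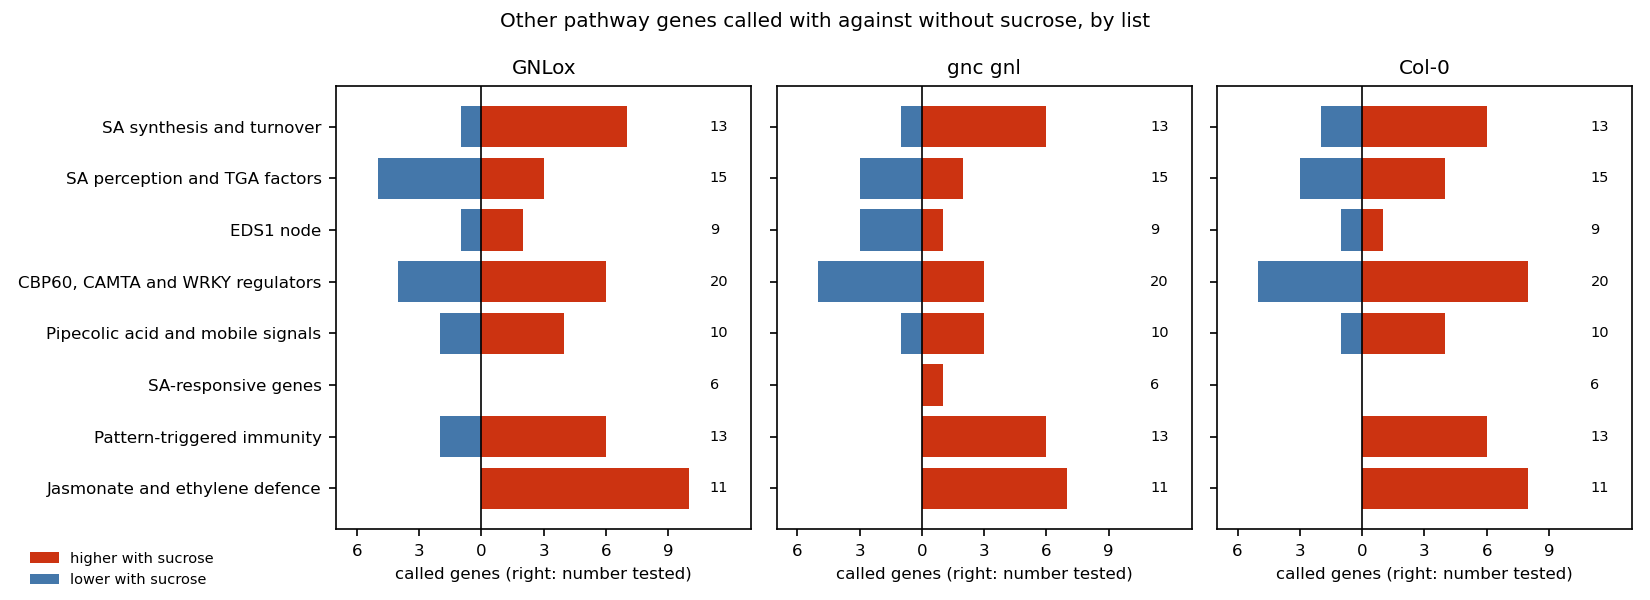
Number of other pathway genes called higher (right of 0) or lower (left of 0) with sucrose in each list, for GNLox, gnc gnl and Col-0; the number tested stands at the right. The jasmonate and ethylene list has 10, 7 and 8 genes higher, and the salicylic-acid-responsive list has 0, 1 and 0.

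Between genotypes, 7 of the 97 genes were higher and 10 lower in GNLox than in Col-0 with sucrose, and 7 were higher and 9 lower without sucrose. Of all genes 20.4% were called with sucrose and 13.5% without. Without GNLox without sucrose replicate 3, the count without sucrose was 8 in all. The share of all genes called in that fit is not given here, so the lower count cannot be read as particular to these genes. With sucrose PR3 was lower, at 33.7 ± 12.9 CPM in GNLox against 143 ± 18.5 CPM in Col-0 (log2 ratio -2.08 ± 0.31, edgeR adjusted p = 0.00081), as was DLO1, a salicylic acid hydroxylase, at 4.10 ± 1.55 CPM in GNLox against 12.3 ± 2.42 CPM in Col-0 (-1.57 ± 0.29, edgeR adjusted p = 0.0024). The log2 ratio was also below 0 and called for PR4 (-1.35 ± 0.24), WRKY54 (-0.97 ± 0.19) and ADR1 (-0.55 ± 0.14), and above 0 and called for CBP60D, a relative of CBP60G (0.65 ± 0.11), and TGA3 (0.48 ± 0.11). Without sucrose PCC1 was lower, at 1.90 ± 1.39 CPM in GNLox against 10.6 ± 1.73 CPM in Col-0 (-2.44 ± 0.56, edgeR adjusted p = 0.011). In gnc gnl none of the 97 genes passed on either medium in edgeR, where 0.160% of all genes were called with sucrose and 1.29% without. At an unadjusted edgeR p under 0.05, 29 passed with sucrose and 8 without, against 3642 and 3988 of all 21903 genes. DESeq2 called 10 and 1, against 341 and 1040 of all genes. In the difference of the sucrose response, AT4G26120 was lower in GNLox than in Col-0 (-1.35 ± 0.29, edgeR adjusted p = 0.035), and it stayed called in 6 of the 18 fits that left out 1 library.

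Over the 18 libraries, Pearson's r of log2 CPM was 0.970 between PBS3 and CBP60G, 0.911 between PAD4 and ALD1 and 0.879 between EDS1 and SARD1, while ICS1 had r between 0.376 and 0.627 with the other fitted genes. The libraries share their groups, so these values describe the libraries only. Among all nuclear genes outside the 10, those with the most similar levels over the 18 libraries were CYP78A8 (r = 0.986) for PBS3, CYP78A8 (0.971) for CBP60G, CYTB5-C (0.979) for ALD1, DIR5 (0.965) for FMO1, CYP82C2 (0.976) for SARD1, CNGC3 (0.966) for PAD4, AT3G22600 (0.970) for EDS1 and RGL2 (0.912) for ICS1. Reads in introns made up 0.291% of PBS3 reads and 2.50% of SARD1 reads, the lowest and highest shares among the 8 fitted genes.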

How the data were processed

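RNA from 18 libraries of dark-grown seedlings, 3 for each of 6 groups, was analysed from the tables the authors deposited. Per the file headers these give, for each gene, a total count of reads, RPKM, TPM and fractions of reads by class; the use of strand, the aligner, the counter and the library kit are named by no source used here, and the genome build was TAIR 10 per the submitters' processing notes. The deposited counts of total gene reads entered the tests; the RPKM, TPM and fraction values that the authors deposited entered none, and the fractions served as library facts. Genes were kept by filterByExpr of edgeR 4.0.16 in R 4.3.3 (21903 of 32833), normalised by TMM, and fitted as 1 model of 6 groups with 12 residual degrees of freedom, robust quasi-likelihood tests and Benjamini-Hochberg adjustment over all genes (adjusted p under 0.05). Levels are CPM on TMM-normalised library sizes. The 10 genes and the gene lists were chosen with earlier results of these data known. Pathway genes were named as up to 4 per list and comparison. These had the largest log2 ratio among called genes whose groups did not overlap and that averaged 1 CPM or more in a group. Likeness was ranked by r, and the gene with the highest r is named for each of the fitted salicylic acid genes. Replicate numbers were checked as a possible pairing by correlating deviations from group means. Only for GNLox against Col-0 without sucrose was every same-numbered correlation over 0.1, at 0.124 to 0.416. A different-numbered pair there reached 0.191, so a pairing is not established. The labels name no separate cultures, so p-values cover only the spread between these libraries, which may be technical. Alternatives were DESeq2 1.42.0, other normalisation, no filter, exon and unique reads, only the compared groups, the replicate block and leaving out each library. Intervals and the limit of 3 counts cover counting error only.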

Additional observations from a re-analysis of the deposited data

Results flagged for a closer look

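The sucrose response of CBP60G differed between GNLox and Col-0 by -3.12 on the log2 scale (SE 0.64). It kept its call in 8 of 8 alternatives and in 8 of 18 fits that left out 1 library, with values of -3.31 to -3.01. The sucrose response of AT4G26120 differed between GNLox and Col-0 by -1.35 on the log2 scale (SE 0.29, edgeR adjusted p = 0.035). AT4G26120 kept its call in 8 of 8 alternatives and in 6 of 18 fits that left out 1 library, and its adjusted p ranged from 0.0018 to 0.11 over the fits. AT4G26120 stands here because the test of the difference passed. CBP60G was chosen with its values in these libraries known, so its difference is a description and its call is no evidence.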

How the results depend on the processing

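No result reversed, and the log2 ratios of the 8 fitted genes stayed within their error in all alternatives run, except 17 of 1296 values that left out 1 library; for the named pathway genes 139 of 1998 such values fell short of the threshold. With only the compared groups in the fit, 1645 genes were called for GNLox against Col-0 with sucrose (4464 with all 6 groups), 1223 without sucrose (2964), 105 for gnc gnl with sucrose (35) and 31 without (283); of the fitted salicylic acid genes, 0 were called for gnc gnl without sucrose (1) and 4 for the GNLox interaction (1), and pathway genes 9 (17), 5 (16) and, for gnc gnl with sucrose, 1 (0). DESeq2 called 341 and 1040 genes for gnc gnl with and without sucrose, 879 and 69 for the GNLox and gnc gnl interactions, salicylic acid genes 2, 1 and 4 for GNLox without sucrose, gnc gnl with sucrose and the GNLox interaction, and pathway genes 10, 1, 4 and 1 for gnc gnl with and without sucrose and both interactions. Size-factor normalisation, exon reads and unique reads each called 1 of them for GNLox without sucrose. With a replicate block 500 genes were called for gnc gnl against Col-0 without sucrose. For GNLox against Col-0 without sucrose, where every same-numbered correlation was over 0.1, the block called 0 salicylic acid genes and 16 pathway genes, as without it. The block called 4 salicylic acid genes in place of 5 for sucrose in gnc gnl. For this fit and those by size factors, exon reads and unique reads, the share of all genes called is not given here. These counts of salicylic acid genes are thus a description only. Leaving out 1 library gave 2144 to 4904 genes for GNLox with sucrose and 1518 to 3314 without, 16 to 55 and 20 to 908 for gnc gnl with and without, 4626 to 7671 for sucrose in gnc gnl, and 2 to 383 and 0 to 1 for the interactions. Salicylic acid genes ranged 0 to 2, 0 to 1, 0 to 1 and 0 to 4 for GNLox without sucrose, gnc gnl with and without sucrose and the GNLox interaction. Pathway genes ranged 6 to 18 and 7 to 16 for GNLox, 0 to 1 for both gnc gnl comparisons and the GNLox interaction, and 27 to 45 for sucrose in gnc gnl.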

Other observations

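The 105 genes more than 4-fold lower in gnc gnl with sucrose replicate 1 than in both other replicates were chosen after their values were seen. They had to average 1 CPM or more in those other replicates, which were grown with sucrose, and PBS3, CBP60G, ALD1 and FMO1 are among them. The shares of all genes below cover every fitted gene, not only nuclear genes at that level. The shares of the 105 thus follow in part from the choice and support nothing by themselves. Of them 83 (79.0%) were called higher with sucrose in Col-0, against 26.0% of all genes, and 80 (76.2%) were called lower in GNLox than in Col-0 with sucrose, against 10.2%. In GNLox itself 35 (33.3%) were higher with sucrose, against 28.7% of all genes, and 9 (8.57%) lower. Their median log2 ratio was 2.95 for sucrose in Col-0 and -2.85 for GNLox against Col-0 with sucrose. FOX2, an oxidoreductase of indole metabolism, had 0.494, 36.1 and 37.8 CPM in the 3 gnc gnl libraries with sucrose, and it averaged 2.03 ± 1.81 CPM in GNLox with sucrose and 70.9 ± 8.76 CPM in Col-0 with sucrose (SD, n = 3). PCR9 had 0.768, 23.1 and 24.9 CPM in gnc gnl with sucrose. The cause was not tested.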
